A study of Homo sapiens with 3 samples.

Results

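The 7 genes examined here were *ADAMTS14*, *CDH6*, *SEMA7A*, *ANGPTL2*, *SAMD5*, *MCOLN3* and *PLAT*. They stand beside *ERBB3* on the study's list of genes whose RNA changed, in either direction, both on PRCC-TFE3 induction and on loss of *ARID2*. A further gene of that list was not examined here. No RNA values were used to describe them, and every value below comes from binding data. A binding site was assigned to a gene when its peak lay inside the gene or within 10 kb of it. Under this rule the genes held 44 of the 109205 peaks of replicate 1 and 31 of the 81300 peaks of replicate 2. After overlapping peaks were merged they formed 47 regions, of which 28 held a peak of each replicate and are called shared regions.

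The cells were HK-2, an immortalized line from human proximal tubule, engineered with a Tet-On system to produce HA-tagged PRCC-TFE3 when doxycycline is given. PRCC-TFE3 is a fusion protein of TFE3-rearranged renal cell carcinoma, and the study asked where it binds. All 3 libraries, the 2 HA-PRCC-TFE3 ChIP replicates and the 1 input DNA library, came from cells given 0.2 µg/mL doxycycline for 24 h. The fusion is therefore present in the input cells as well, and uninduced cells were not analysed here. The sources do not say whether the line was 1 clone. The study calls the replicates biological, whereas the labels do not say that they came from separate cultures, so the spread between them may be partly technical.

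TFE3 belongs to the MiT/TFE family of basic helix-loop-helix leucine zipper transcription factors, whose members bind E-boxes as dimers and switch on lysosomal, autophagy and metabolic genes. PRCC-TFE3 keeps the DNA-binding and dimerization part of TFE3. Of the 7 genes, *MCOLN3* encodes TRPML3, a cation channel of endosomes and lysosomes. Proteins that act outside the cell are encoded by *PLAT*, the tissue plasminogen activator, *ADAMTS14*, a metalloproteinase that removes the amino-terminal propeptide of procollagen, and *ANGPTL2*, a secreted angiopoietin-like glycoprotein. *CDH6* encodes the kidney cadherin, a calcium-dependent adhesion molecule of the renal tubule. *SEMA7A* encodes a semaphorin that is tethered to the membrane by a GPI anchor, and *SAMD5* encodes a protein with a sterile alpha motif domain.

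The sequences before the starts of *MCOLN3* and *ANGPTL2* are shown because both genes carried a peak of each replicate whose summit lay just upstream of the start. Each run holds the 250 bases before the start in RefSeq, read 5′ to 3′ on the minus strand of GRCh38.p14, from chr1:85048501-85048750 for *MCOLN3* and from chr9:127122636-127122885 for *ANGPTL2*. Capitals mark the single match to CANGTG, which begins 129 bases before the *MCOLN3* start and reads CACCTG on the strand shown.
MCOLN3: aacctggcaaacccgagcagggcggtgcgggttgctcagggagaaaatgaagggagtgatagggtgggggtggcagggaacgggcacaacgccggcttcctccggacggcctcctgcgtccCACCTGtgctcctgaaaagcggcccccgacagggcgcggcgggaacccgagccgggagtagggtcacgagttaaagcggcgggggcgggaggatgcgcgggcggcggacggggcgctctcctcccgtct
ANGPTL2: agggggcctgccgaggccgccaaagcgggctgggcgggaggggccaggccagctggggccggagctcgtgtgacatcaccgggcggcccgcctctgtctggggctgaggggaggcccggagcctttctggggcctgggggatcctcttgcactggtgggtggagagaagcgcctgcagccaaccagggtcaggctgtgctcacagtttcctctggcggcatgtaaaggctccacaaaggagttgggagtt

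RefSeq promoter windows were found for 4 of the 7 genes, namely *ADAMTS14*, *SEMA7A*, *ANGPTL2* and *MCOLN3*, with 5 windows in all because *SEMA7A* has 2 starts. *CDH6*, *SAMD5* and *PLAT* had no entry. Each window runs from 250 bases before to 50 bases after the start. It was searched on both strands for the E-boxes CACGTG and CATGTG, for the wider form CANGTG that includes both of them, for the longer CLEAR palindrome that contains CACGTG, and for the AP-1 site TGANTCA. The CACCTG in *MCOLN3* was the single match in the 5 windows. Over all 35116 promoter windows, 7.26% held CACGTG, 11.1% CATGTG, 42% CANGTG, 7.71% TGANTCA and 0.353% the CLEAR palindrome. The windows of the members were rich in G and C. The GC content was 70.3% in *MCOLN3*, 68% in *ANGPTL2*, 79.7% in *ADAMTS14* and 70% and 77.3% at the starts of *SEMA7A*, against a median of 58.7% over all promoters. The *ANGPTL2* window held 14 CpG dinucleotides, equal to the median of 14, whereas the *MCOLN3* window held 33 and the *ADAMTS14* window 42. The RefSeq start on this build and the start used for the peaks, which is on hg19, need not coincide to the base, and the sequence beneath the peaks themselves was not analysed here.

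The ChIP libraries held 12235754 tags in replicate 1 and 7418533 in replicate 2, and the input library about 21695235, as estimated from the deposited lists. Peaks are described by the authors' fold enrichment at the summit over the background of the caller, which has no unit, and by the q value of the peak. In a second peak list of each sample, windows of 208 bp in replicate 1 and 212 bp in replicate 2 carried whole counts of ChIP tags. Each count in a window is 1 number from 1 library, and the intervals below cover counting error only. Distances are in kb from the transcription start on hg19, negative upstream of it. All intervals of genes and regions below are on hg19.

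*MCOLN3*, the lysosomal channel gene at chr1:85483765-85514182 on the minus strand, had the simplest pattern, with 1 region in its whole 50.4 kb window. That region, chr1:85514104-85514522, covered the start, and the summits lay 104 bp upstream of it in replicate 1 and 109 bp upstream in replicate 2. The fold enrichment was 6.84 in replicate 1 and 7.02 in replicate 2, so the replicates were nearly level. The windows there held 18 and 14 ChIP tags against 3 and 4 input tags. Among all shared regions these folds stood at the 22.3 percentile in replicate 1 and the 37.9 percentile in replicate 2, below the median in both.

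*ANGPTL2*, at chr9:129849611-129884874 on the minus strand, held 5 peaks in replicate 1 and 4 in replicate 2, which formed 6 regions with 3 of them shared. The shared region nearest the start was also the strongest of the gene, chr9:129884804-129885779. Its summits lay 226 and 217 bp upstream of the start, with folds of 17.6 in replicate 1 and 13.3 in replicate 2. This region held 43 and 24 ChIP tags, with 2 input tags in either window, and ranked at the 84.5 and 79.9 percentiles. The other shared regions were weaker. The one 9.55 kb upstream had folds of 10.5 and 6.95, and the one 1.67 kb into the gene had folds of 6.42 and 5.68. Replicate 1 had the higher fold in all 3. The interval of *RALGPS1* overlaps the gene in RefSeq, and peaks were assigned to *ANGPTL2* by position alone.

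*ADAMTS14*, the procollagen proteinase gene at chr10:72432559-72522195 on the plus strand, held the most shared regions, 8 of 11, from 10 peaks in replicate 1 and 9 in replicate 2. The shared region nearest its start, chr10:72433367-72433948, lay 1.0 kb into the gene and had folds of 21.0 and 15.9 and 44 and 26 tags. A region 7.84 kb upstream, chr10:72424340-72425296, had folds of 18.9 and 17.0 and 40 and 27 tags, which was the highest value of the weaker replicate among the 28 shared regions. Another, 27.1 kb into the gene, was nearly equal in the replicates, at 13.8 and 13.6. These 3 regions had 0 or 1 input tags per window and were the strongest of the gene. The other 5 shared regions were spread over the gene from 43.2 to 86.4 kb, with folds of 5.70 to 10.6 in replicate 1 and 3.44 to 7.52 in replicate 2. The lowest of them, at 43.2 kb, had 13 and 7 ChIP tags beside 5 and 3 input tags. A peak of replicate 2 alone lay 639 bp upstream of the start with a fold of 5.13, so within 1 kb of the start the replicates had summits in different regions. The neighbouring gene *TBATA* lies within 10 kb in RefSeq.

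*PLAT*, the plasminogen activator gene at chr8:42032236-42065194 on the minus strand, held 10 peaks in replicate 1 and 6 in replicate 2, and all 6 of the latter were shared. Its shared region at the start, chr8:42065002-42065405, had summits 49 and 6 bp upstream of the start, folds of 11.0 and 9.03, and 29 and 17 ChIP tags with 2 input tags in either window. The strongest region of the gene, chr8:42053773-42054190, lay 11.23 kb inside it with folds of 17.1 and 10.9. It held 34 and 15 tags, and no input tag was counted in its windows. Upstream shared regions at -9.58 and -7.39 kb had folds of 8.62 and 9.62 and of 12.8 and 7.06. The other shared regions, at 4.35 and 12.35 kb, were weaker in both replicates, with folds of 5.83 and 5.10 and of 5.88 and 4.81. Of the 4 regions seen in replicate 1 alone, the one at 13.85 kb stood out, with a fold of 10.7, 18 ChIP tags and no input tag. That was the highest fold among the member peaks of replicate 1 that had no partner in replicate 2. *AP3M2* lies within 10 kb of the gene in RefSeq.

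*SEMA7A*, the GPI-anchored semaphorin gene at chr15:74701630-74726299 on the minus strand, held 8 peaks in replicate 1 and 4 in replicate 2, and again all peaks of replicate 2 were shared. Replicate 1 had a peak at the start itself, with its summit 15 bp inside the gene, a fold of 6.42, 12 tags and no input tag. Replicate 2 had no peak there, and its nearest summit was 4899 bp upstream. The shared region nearest the start was this upstream one, chr15:74731080-74731328, with folds of 6.42 and 7.70 and 11 tags in either replicate. The region with the highest value of the weaker replicate, chr15:74715043-74715717, lay 10.94 kb inside the gene, had folds of 14.4 and 14.8, and held 29 and 22 tags and no input tag. Downstream of the gene end, the region 26.4 kb from the start had folds of 11.8 and 16.7 and 20 and 25 tags, and the one at 33.3 kb had folds of 6.46 and 7.02. The fold was higher in replicate 2 in all 4 shared regions, whereas in *ADAMTS14* it was higher in 1 of 8. The microRNA gene *MIR6881* overlaps *SEMA7A* in RefSeq.

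*CDH6*, the cadherin gene at chr5:31193762-31329253 on the plus strand, held 8 peaks in replicate 1 and 5 in replicate 2, and the latter were all shared. Of its 5 shared regions, 3 lay within 2.86 kb of the start and 2 lay 38.77 and 41.96 kb inside the gene. No peak of either replicate was found from 42.62 kb to the end of the gene or in the flank after it. The region at the start, chr5:31193633-31194054, had summits 110 and 107 bp inside the gene and folds of 4.81 and 7.70, at the 5.14 and 46.9 percentiles. In the second peak lists only replicate 2 had a window there, with 11 tags and no input tag, and replicate 1 had none. The next regions, 1.56 and 2.86 kb inside, had folds of 5.27 and 5.13 and of 6.42 and 11.6. The region whose weaker replicate was highest, chr5:31235578-31235858, lay 41.96 kb inside with folds of 8.56 and 8.42 and 15 and 13 tags. No shared region of *CDH6* reached the median fold of all shared regions in replicate 1, which was 10.1, whereas in replicate 2 the regions at 2.86 and 41.96 kb lay above the median of 7.99. A lncRNA gene, *LOC105374709*, and a pseudogene, *DUX4L51*, overlap the gene in RefSeq.

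*SAMD5*, at chr6:147829828-147891159 on the plus strand, held 2 peaks in either replicate and 1 shared region. The shared region, chr6:147831101-147831344, lay 1396 bp inside the gene by its replicate 1 summit and 1404 bp by the other, with folds of 6.05 and 8.21, 13 and 15 ChIP tags and 2 input tags in either window. At the start, replicate 2 alone had a peak, 107 bp upstream, with a fold of 7.31 and 17 tags. The second list also placed a window of replicate 1 there, with 11 tags and 2 input tags, although its first list had no peak. The tags thus lay at the start in both libraries, and the call there differed between the lists. A replicate 1 peak 21.9 kb inside had a fold of 5.52. RefSeq gives *SAMD5* a longer interval than the one used here and an overlapping lncRNA gene, *LOC105378044*, and the added stretch was not covered.

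**Figure D1:**
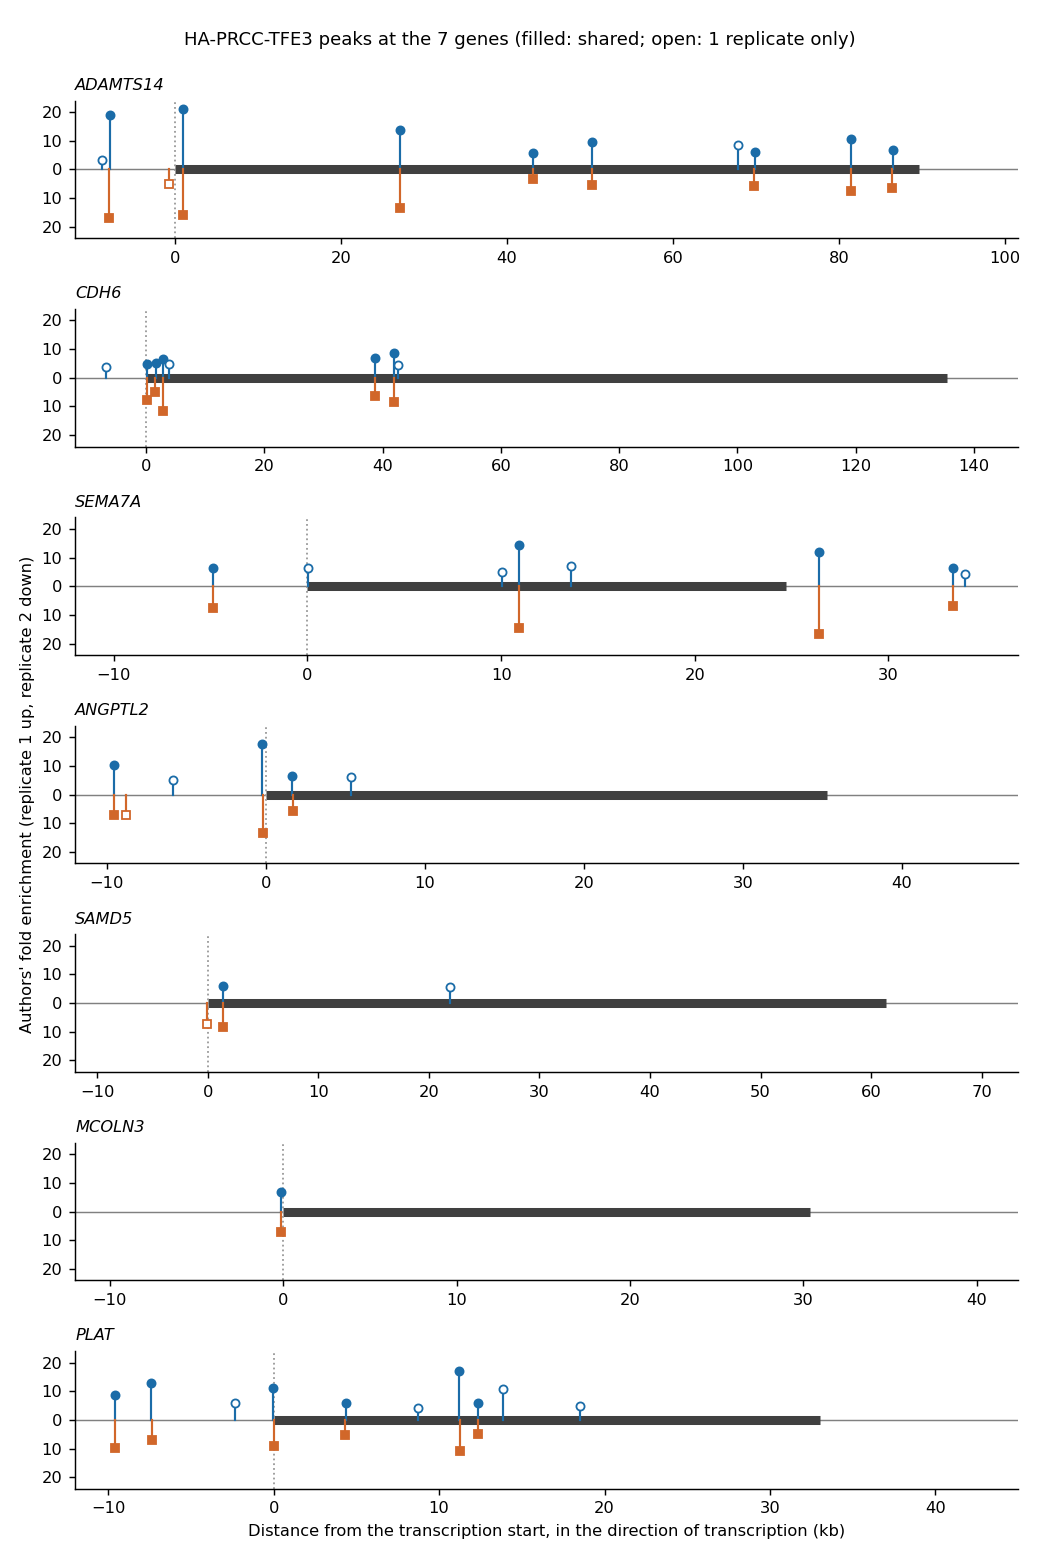
Fold enrichment (vertical axis, no unit) of each peak at the 7 genes against the distance of its summit from the transcription start (horizontal axis, kb, on a scale of its own in each panel). Replicate 1 points up and replicate 2 down, filled symbols are shared regions, open symbols were seen in 1 replicate, and the dark bar is the gene. *MCOLN3* shows 1 region at its start, whereas *ADAMTS14* and *PLAT* show 8 and 6 shared regions.

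In the first peak lists, the starts fell into 3 kinds. *CDH6*, *ANGPTL2*, *MCOLN3* and *PLAT* had a shared region with a summit of each replicate within 1 kb of the start, and all of these summits lay within 226 bp of it. *ADAMTS14* also had a summit of each replicate within 1 kb, at 982 and -639 bp, but in different regions, which makes 5 genes by distance alone. *SEMA7A* and *SAMD5* had a peak at the start in 1 replicate. In the second lists *SAMD5* had a window of each replicate at the start, and *CDH6* had one in replicate 2 only. Among peaks of the first lists with q below 1e-05 in both replicates, 3 genes were left, *ANGPTL2*, *MCOLN3* and *PLAT*. The share of all genes in the genome with a peak at the start was not analysed here, so these counts have no background.

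By position, 4 of the 28 shared regions lay within 1 kb of a start, 5 further upstream, 17 in gene bodies and 2 downstream. Set against the length of these compartments, this came to 28.6 shared regions per 100 kb within 1 kb of the starts, 7.94 upstream, 4.22 in gene bodies and 2.86 downstream. The first value rests on 4 regions in 14 kb. Over the 7 windows together there were 5.09 per 100 kb, and over chromosomes 1 to 22 and X there were 2.32. The chromosomes include long stretches without genes, and the density over windows of other genes was not analysed here. The values therefore do not show that these genes were more densely occupied than other genes.

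The genes differed in how densely they were occupied. *PLAT* had 11.33 shared regions per 100 kb, *SEMA7A* 8.95, *ADAMTS14* 7.3, *ANGPTL2* 5.43, *CDH6* 3.22, *MCOLN3* 1.98 and *SAMD5* 1.23. Each window was set beside all tiles of its own length along the genome. Of these tiles, 4.3% held at least as many shared regions as *PLAT*, 8.7% as many as *SEMA7A* and 9.1% as many as *ADAMTS14*. The same share was 19.0% for *ANGPTL2*, 30.7% for *CDH6*, 46.5% for *MCOLN3* and 56.5% for *SAMD5*. Many tiles held no shared region, from 30.8% of those of the length of *CDH6* to 56.1% of those of the length of *SEMA7A*. *PLAT*, *SEMA7A* and *ADAMTS14* were matched by few tiles of this mixed background. For *MCOLN3* and *SAMD5*, with 1 shared region each, the share is that of the tiles that hold any. Windows around other genes were not analysed here. On the tiles of its own chromosome the share was 3.2% for *PLAT*, 5.7% for *SEMA7A*, 10.4% for *ADAMTS14*, 16.4% for *ANGPTL2*, 19.9% for *CDH6*, 55.0% for *MCOLN3* and 64.5% for *SAMD5*. The share for *CDH6* moved the most between these backgrounds. These shares are a description of windows that also include tiles without any gene.

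**Figure D2:**
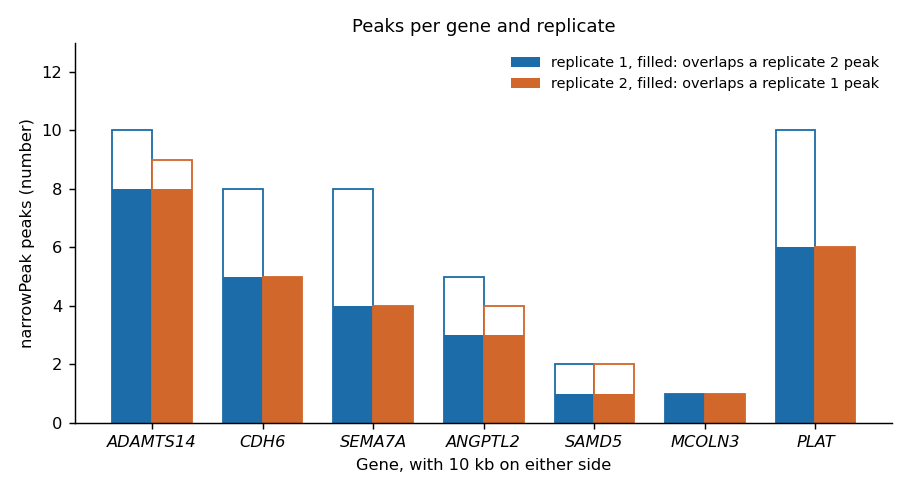
Number of narrowPeak peaks (vertical axis) in the window of each gene (horizontal axis) for replicate 1 (left bars) and replicate 2 (right bars), with the filled part overlapping a peak of the other replicate. *CDH6*, *SEMA7A*, *MCOLN3* and *PLAT* show no open part in replicate 2, and *PLAT* shows 4 unmatched peaks in replicate 1.

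Peaks at the 7 genes recurred between the replicates about as often as peaks anywhere. Of the replicate 1 peaks, 28 of 44 overlapped a replicate 2 peak, or 63.6% (95% Wilson interval 48.9 to 76.2), beside 65.3% over all peaks. Of the replicate 2 peaks, 28 of 31 overlapped a replicate 1 peak, or 90.3% (75.1 to 96.7), beside 88.5% over all. Of the merged regions 59.6% were shared, beside 59.8% over all. The share of the members was near the background in each of these counts and is not a result about the genes. Of the regions that were not shared, 16 were in replicate 1, the deeper library, and 3 in replicate 2. In the shared regions the summits of the replicates lay a median of 23.5 bp apart, from 3 to 127 bp, beside a median of 31 bp over all shared regions.

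By fold enrichment, the shared regions at these genes lay below the middle of all shared regions in replicate 1 and slightly below it in replicate 2. The median fold of the 28 shared regions was 7.76 in replicate 1 and 7.61 in replicate 2, whereas over all 70426 shared regions it was 10.1 and 7.99. With regions ranked by the lower fold of the replicates, the median over the members was the 41.2 percentile among all shared regions, and 10 of the 28 lay above the middle of that ranking. With the replicates ranked apart, the member medians averaged the 38.5 percentile. A q below 1e-05 was reached by 34 of 44 peaks in replicate 1, beside 82.4% of all peaks, and by 26 of 31 in replicate 2, beside 78.2%. The member share was lower than that of all peaks in replicate 1 and higher in replicate 2, so the gaps pointed in opposite directions. They rest on few peaks, were not tested and are not a result about the genes. Member peaks of replicate 1 without a partner had a median fold of 4.96, beside 5.35 over all such peaks. Peak widths were close to those elsewhere, with medians of 285 and 281 bp at the members and 280 and 284 bp over all peaks.

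**Figure D3:**
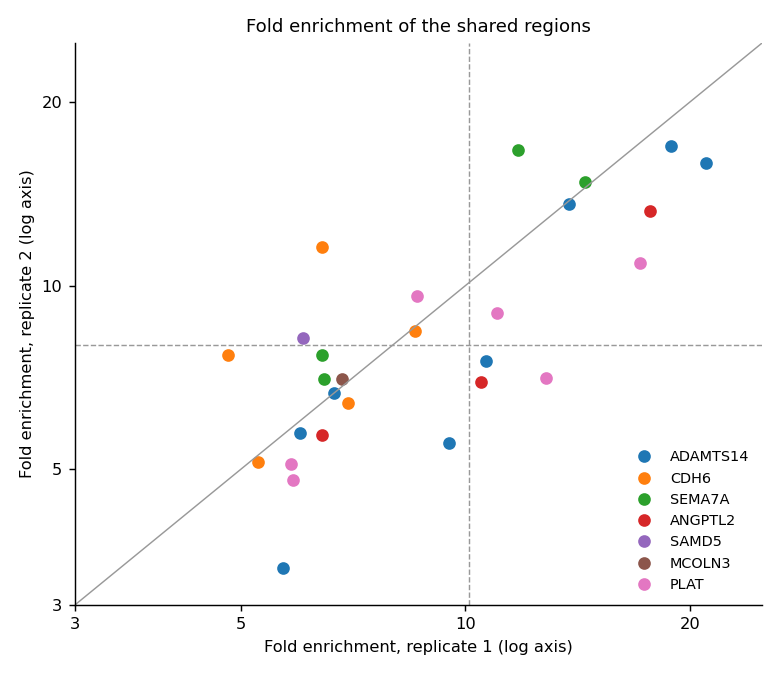
Fold enrichment of the 28 shared regions in replicate 1 (horizontal log axis, no unit) and replicate 2 (vertical log axis), coloured by gene, with the line of equal values and, dashed, the medians of all shared regions, 10.1 and 7.99. The regions with the highest folds in both replicates belong to *ADAMTS14*, *SEMA7A*, *ANGPTL2* and *PLAT*, and 10 of the 28 lie above the line of equal values.

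The split of tags between the replicates was examined in the 26 windows that the second lists held in both replicates. Sites with a window in 1 replicate alone, such as the *SEMA7A* start and the *PLAT* region at 13.85 kb, could not enter, so the windows compared were those where both libraries already had enough tags for a call. Replicate 2 contributed 392 of the tags and replicate 1 563, a replicate 2 share of 41% (95% Wilson interval 38 to 44.2), beside 39.8% over all matched windows. In an exact two-sided binomial test of each window against 39.8%, none of the 26 had an adjusted p (Benjamini-Hochberg over the 53266 windows tested) under 0.05, and the lowest was 1. The background was the same, with 0% of all windows called. At an unadjusted p under 0.05 there were 3 of the 26, beside 2.31% of all windows. These were *CDH6* at 2.87 kb and *SAMD5* at the start, each with 11 tags in replicate 1 and 17 in replicate 2 (p = 0.0321, exact test), and *SEMA7A* at 26.4 kb with 20 and 25 tags (p = 0.0333, exact test). All 3 leaned to replicate 2. Because of how the windows were chosen, the absence of calls does not show that the replicates were alike at these genes. The test compares 2 libraries of 1 condition and says nothing about doxycycline.

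By gene, the replicate 2 share of tags was 34.7% in *ANGPTL2* (26.9 to 43.4), 35.4% in *PLAT* (28.4 to 43.1), 37.7% in *ADAMTS14* (32.9 to 42.9), 43.8% in *MCOLN3* (28.2 to 60.7), 49% in *SEMA7A* (41.1 to 56.9), 50% in *CDH6* (39.2 to 60.8) and 57.1% in *SAMD5* (44.1 to 69.2). The interval contained 39.8% in 5 genes, and in *SEMA7A* and *SAMD5* it lay above it. These intervals pool the windows of a gene, cover counting error only and were not adjusted for the number of genes. Both of these genes hold a window already named for its unadjusted p, so the pooled shares add no separate result. How often such an interval misses 39.8% at other loci was not analysed here. Fold enrichment was higher in replicate 2 in 4 of 4 shared regions of *SEMA7A*, in 2 of 5 of *CDH6*, in the single ones of *SAMD5* and *MCOLN3*, in 1 of 6 of *PLAT*, in 1 of 8 of *ADAMTS14* and in none of the 3 of *ANGPTL2*. Over all genes it was higher in replicate 2 in 10 of 28, beside 27.4% of all shared regions.

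**Figure D4:**
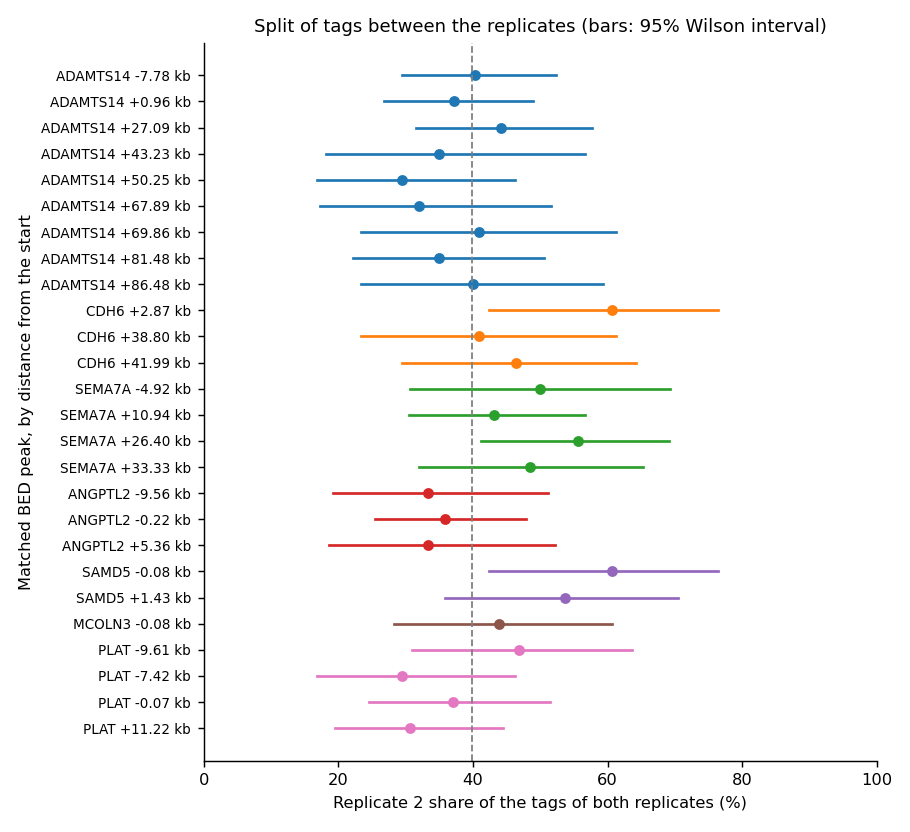
Replicate 2 share of the tags of both replicates (horizontal axis, %) in each of the 26 matched windows (vertical axis, by gene and distance from the start), with 95% Wilson intervals and, dashed, the share over all matched windows, 39.8%. The shares run from 29.4% to 60.7%, and the 3 windows whose intervals lie wholly above the dashed line belong to *CDH6*, *SEMA7A* and *SAMD5*.

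Input DNA gave the only background. None of its 286 peaks lay at a member gene. In the windows of the second lists, 35 at the members in replicate 1 and 29 in replicate 2, there were 667 ChIP tags beside 43 input tags, and 421 beside 34. After scaling to the size of the libraries, ChIP exceeded input 27.5-fold in replicate 1 (95% exact interval 20.2 to 38.4) and 36.2-fold in replicate 2 (25.5 to 53), a mean of 31.9 ± 6.15 (SD, n = 2). Both ratios share the 1 input library and cover different sets of windows, so this SD is not a spread of independent measurements. Over all windows the ratios were 43.8 and 54.2. The intervals hold counting error alone and not the spread between windows, and the ratios of single genes ran from 10.3 to 73.3, so the members were not shown to differ from the rest. These windows were called against this input, so an excess is what chose them, and the values serve to set the members beside the rest.

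The members held more input tags per window than windows elsewhere, with means of 1.23 and 1.17 beside 0.874 and 0.876, and no input tag was counted in 12 of 35 and 10 of 29 windows, beside 46.1% and 46.9% of all. Both means come from the same input library at largely the same sites, so neither repeats the other. *ADAMTS14* held 14 of the 43 and 13 of the 34 input tags, in 9 of the 35 and 10 of the 29 windows. *MCOLN3* held 3 and 4 input tags in its only window of each replicate. The difference between the members and windows elsewhere was not tested. ChIP tags per window were similar, with medians of 16 and 14 beside 17 and 13. By gene, ChIP tags exceeded the scaled input 67.5-fold and 55.7-fold in *PLAT*, the highest ratio of replicate 1, and 44.4-fold and 71.3-fold in *SEMA7A*. In replicate 2 the highest ratio was that of *CDH6*, at 73.3 beside 22.7 in replicate 1. The ratio was lowest in *MCOLN3* in both replicates, at 10.7 and 10.3. *ADAMTS14* had ratios of 28.0 and 31.7, *ANGPTL2* 20.5 and 31.7, and *SAMD5* 11.1 and 23.4. Each gene ratio rests on 2 to 14 input tags, and those of *CDH6*, the most unequal between the replicates, rest on 4 and 2.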

How the data were processed

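HA-PRCC-TFE3 ChIP-seq (replicates 1 and 2) and input DNA from doxycycline-treated HK-2 cells were grouped by their labels. Peaks were called by the authors for each sample on its own, with MACS in Strand NGS against input DNA per the methods, on hg19 per the submitters' processing notes. The aligner is not given in the sources used here. On 15 of 24 chromosomes peaks ended beyond the hg38 sequence, so no coordinates were converted. The deposited narrowPeak lists hold a fold enrichment ratio, −log10 p and −log10 q values, and a score. The lowest −log10 q was 1.31 and 1.35. The deposited BED lists are laid out like HOMER findPeaks output under a displaced header. In them the authors gave tag counts, a signal scaled to 10000000 tags of the library, a score, fold ratios and p-values. Their focus fraction, also deposited, was left out. The deposited tag counts were the only counts tested.

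Library totals and input tags were recovered from these columns. 100% of the recovered input values lay within 0.1 of a whole number or of a fixed value below 1. That fixed value was read as no input tag, in 46.1% of all windows of replicate 1 and 46.9% of replicate 2. A peak belonged to a gene when it overlapped the gene with 10 kb on either side, and peaks of both replicates overlapping by at least 1 bp were merged. BED windows matched between replicates with at least 20 tags entered the binomial test, which was tested on simulated data. There the changed windows were raised to more tags than most member windows held. The simulation therefore does not show that a change at the members could have been called. In each gene, the shared region nearest the start and the one with the highest fold in its weaker replicate were named, and other genes were named only where RefSeq (GRCh38.p14) places them in the window. The genes and lists were chosen with earlier results of these data known. Alternatives covered the list, q, the flank, the overlap, the distance from the start and each replicate. Python 3.11.15, scipy 1.17.1, pandas 2.3.3 and matplotlib 3.10.9 were used.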

Additional observations from a re-analysis of the deposited data

How the results depend on the processing

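Of 59 alternatives, 50 left the value close to the one reported, and 9 did not. Close meant within 1.5 times for a count, within the Wilson interval for a share of peaks, and within 1 SD of the replicates for the median percentile and for ChIP over input. For ChIP over input this could not fail, because either replicate alone always lies within 1 SD of the mean of both. Both of these alternatives are counted among the 50. With q below 1e-10 the genes held 18 and 13 peaks and 10 shared regions. With a 50 kb flank they held 74 and 59 peaks and 53 shared regions. With q below 1e-05, 3 genes in place of 5 had a summit of each replicate within 1 kb of the start. The BED lists gave 4 such genes, which counted as close although they included *SAMD5* and left out *CDH6* and *ADAMTS14*. With the fold over input of the BED lists, the median percentile of the shared regions was 27.2 in place of 38.5. From 1 replicate alone there were 31 to 44 regions in place of 47, with the 31 left without replicate 1. ChIP over input was 27.5 to 36.2 and genes with a summit at the start 6 without either replicate. Requiring both summits in 1 shared region, a choice made after seeing the data, gave 4 genes. No member window was called in the tag split under the 4 settings run, which all used windows called in both replicates. Over the whole lists 0 windows were called under any of these settings. The alternatives of the tag split could thus hardly differ, although they are counted among the 50.

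No paired analysis was possible because input DNA was 1 library whose label gives no number to pair by. Depth limits the description most in replicate 2, where member windows held a median of 14 tags. Duplicate handling is not given in the sources used here.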

Other observations

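Stronger binding lay beyond the 10 kb limit of several genes. Between 10 and 50 kb outside the genes there were 25 shared regions, at 6 of the 7 genes, with 9 of them at *SEMA7A* and none at *SAMD5*. The highest folds there were 31.2 in replicate 1 and 32.4 in replicate 2, at a region 16.12 kb upstream of *ADAMTS14*, above every region inside its window. A region 21.8 kb downstream of *PLAT* had folds of 24.1 and 21.2, beside 17.1 and 10.9 at the strongest region within the window. *MCOLN3*, with a single region in its window, had a second shared region 13.74 kb upstream with folds of 14.4 and 13.5, higher in both replicates than the one at its start. At *ANGPTL2*, a region 38.04 kb downstream had folds of 20.6 and 13.5 and one 36.84 kb upstream folds of 20.3 and 12.2. The region at its start had 17.6 and 13.3, so in replicate 2 the downstream one was nearly level with it and the upstream one lower. Which genes lie nearest to these regions on hg19 was not analysed here. The nearest region outside the limit was a replicate 1 peak 11.16 kb upstream of *PLAT* with a fold of 4.28, and the outermost regions inside it were those 9.55 kb upstream of *ANGPTL2* and 9.58 kb upstream of *PLAT*.

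The BED lists held 5 windows at the genes that no narrowPeak peak of the same replicate overlapped. In replicate 1 these were at *SAMD5*, 1908 and 80 bp upstream of the start with 9 and 11 tags. In replicate 2 they were at *ADAMTS14*, with 8 and 7 tags, and at *ANGPTL2*, with 9 tags.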
